A study of Mus musculus with 24 samples.

Results

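The clustered protocadherin genes of the mouse were followed through 9 RNA-seq libraries of cultured cells. Members were the gene rows whose symbol was Pcdha, Pcdhb or Pcdhg, with or without a further letter a, b or c, followed by a number. This rule used names only, and it gave 58 rows of the 51912 in each count table. The genes to follow were chosen with earlier results of these data known. The alpha cluster held 14 rows, the beta cluster 22 and the gamma cluster 22. All lay on the plus strand of chromosome 18 (GRCm38, Ensembl 89 models). The alpha rows spanned chr18:36930184-37187661, the beta rows chr18:37264938-37524479 and the gamma rows chr18:37661793-37841873. The symbol Pcdha11 stood on 2 rows, ENSMUSG00000007440 and ENSMUSG00000102206. The latter held no count in any library, and Pcdha11 below means ENSMUSG00000007440, where the RefSeq gene table of the same build places Pcdha10.

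Clustered protocadherins are cell surface proteins with cadherin repeats that bind the same isoform on a neighbouring membrane. Each neuron is known to use its own combination of them, by which its branches recognise and avoid one another. In the alpha and gamma clusters every variable exon has its own promoter and encodes the extracellular, transmembrane and first cytoplasmic part of a protein, and it is spliced to a set of constant exons that all genes of the cluster share. Beta genes consist of 1 exon each and have no constant part. Promoter choice is known to involve CTCF, cohesin loops to distant enhancers and methylation of unused promoters. The C-type genes (Pcdhac1, Pcdhac2, Pcdhgc3, Pcdhgc4 and Pcdhgc5) lie last in their clusters and are known for a use that is less random than that of the other genes.

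The series held 24 samples, and the 9 RNA-seq libraries fell into groups of 3. ESCs were wild type TC-1 embryonic stem cells of strain C57BL/6 X 129S5. NPs were neuronal progenitors made from wild type ESCs of the same strain by aggregation and retinoic acid. TET TKO cells were ESCs with a TET1/2/3 triple knockout, of strain C57BL/6 X 129/sv, so the knockout and the cell line cannot be told apart. Each group was 1 cell line, and the labels do not say whether replicates were separate cultures, so p-values measure the spread between these libraries only.

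Libraries held 20519702 to 23976914 assigned reads in ESCs and NPs and 80704741 to 93210102 in TET TKO cells. All 8 ESC markers were called lower in NPs and all 8 neural progenitor markers higher. Other lineages were present as well, since endoderm markers summed to 58.2 to 77.2 counts per 1000000 assigned reads (CPM) in NPs against 4.05 to 6.96 in ESCs. Col1a1, a fibroblast collagen, stood at 43.0, 115 and 9.83 CPM in NPs and at 6.77 to 9.21 in ESCs. Of the 8 neuron markers 5 were called higher in NPs and Stmn2 lower, and their sum was 320 to 659 CPM against 445 to 533 in ESCs. The 5 glial markers summed to 39.0 to 49.1 CPM against 7.24 to 10.1, with both of those tested (Mbp and Olig1) called higher and the defining markers Gfap and Aqp4 below 1 CPM in every NP library. Tet1 measured 1008.5 ± 59.3 CPM (SD, n = 3) in ESCs and 195 ± 33.4 in TET TKO cells, and Tet2 330 ± 46.4 and 40.1 ± 2.99. Tet3 was low in both, at 12.3 ± 1.28 and 8.80 ± 1.12 CPM. The counts cover whole gene models and not the deleted part alone.

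How far a count belonged to 1 gene differed between the clusters. Reads that overlapped more than 1 gene model were left unassigned by the authors, so only exonic bases that no other model covers could collect counts. Such bases made up 100% of the median beta gene, 46.4% of the median alpha gene and 54.7% of the median gamma gene. Of the beta genes, 19 of 22 were wholly unshared. Pcdhga10 had no unshared base, because a gene model on the other strand, Gm26672, and other models of the cluster cover all of it, and its 0 counts in every library were fixed by the counting. Pcdha4 kept 7.00% of its exonic length. Levels are compared between genes below per kb of unshared exonic length, shares are given as counted and with that length taken into account, and alpha and gamma counts describe variable exons, not whole transcripts. Reads that matched several places were not counted either, so stretches that near-identical variable exons have in common gave no counts.

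**Figure D1:**
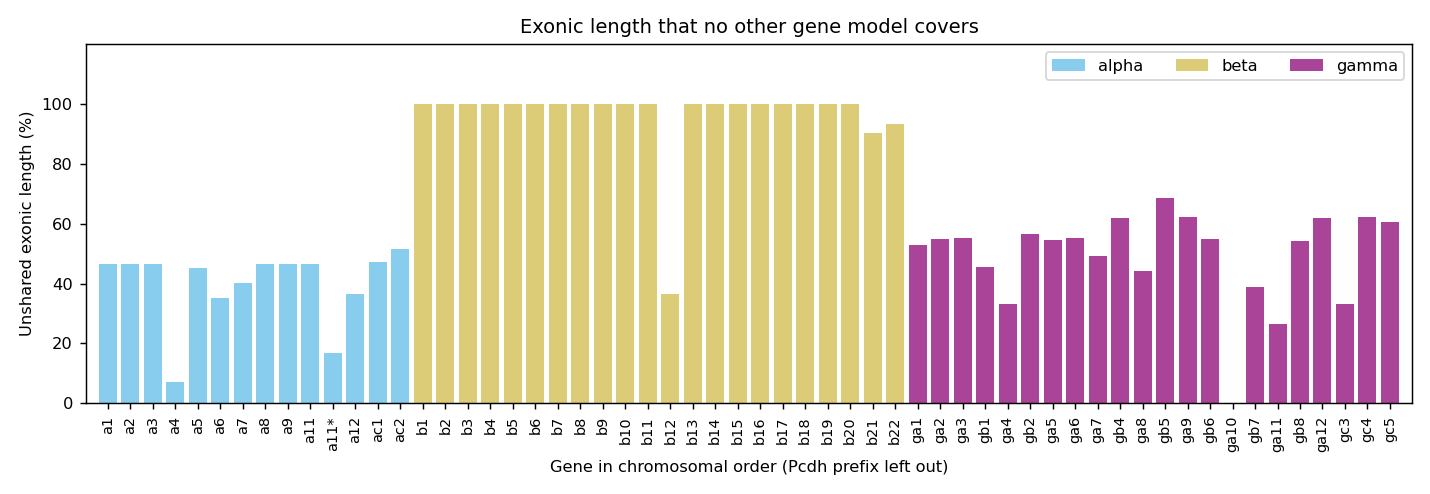
Unshared exonic length of each of the 58 rows, in percent of the exonic length of its gene model, in chromosomal order, with 1 bar for each gene coloured by cluster and the row Pcdha11 ENSMUSG00000102206 marked by a star. Beta bars stand at or near 100% except Pcdhb12 at 36.5%, alpha and gamma bars lie between 0% and 68.5%, and Pcdhga10 has no bar.

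ESCs and NPs differed most in the beta cluster. Summed over its 22 genes, the level was 2.70, 2.82 and 1.82 CPM in the ESC libraries. It was 97.5, 65.0 and 97.4 CPM in NPs and 0.224, 0.547 and 0.189 CPM in TET TKO cells. No library of one group reached into another, and the NP mean was 35.4 times the ESC mean. CPM were scaled by trimmed mean of M values (TMM). In bulk samples, fewer cells that use a gene and less RNA per cell cannot be told apart.

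The alpha genes other than the C-type ones followed the same order at a far lower level, with means of 0.271 ± 0.116 CPM (SD, n = 3) in ESCs against 4.76 ± 1.44 in NPs and 0.0362 ± 0.00900 in cells without TET proteins. The gamma-A genes were present in ESCs at 24.7 ± 4.31 CPM. NPs had 35.2 ± 7.37 and TET TKO cells 4.86 ± 1.61. The gamma-B genes measured 11.1 ± 3.06, 25.0 ± 6.63 and 2.53 ± 1.17 CPM in the same order. The 5 C-type genes summed to 8.26 ± 1.77 CPM in ESCs and to 6.15 ± 1.24 CPM, or 0.744 times that, in TET TKO cells. The ESC and TET TKO ranges of the C-type sum overlapped, and those of the other 4 classes did not, nor did the NP and ESC ranges of any of the 5. For the gamma-A genes the NP and ESC ranges all but touched, at 27.727 CPM in NP replicate 2 and 27.715 CPM in ESC replicate 1.

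**Figure D2:**
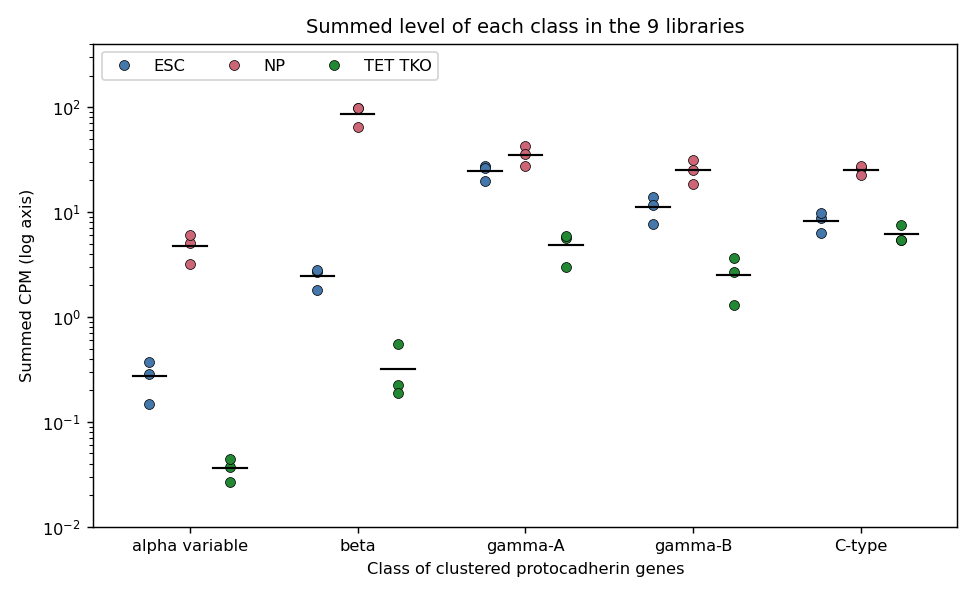
Summed CPM (TMM-scaled, log axis) of the alpha genes without C-type, the beta genes, the gamma-A genes, the gamma-B genes and the 5 C-type genes, with 1 point for each of the 9 libraries and a bar at the group mean. The beta class moves from 1.82 to 2.82 CPM in ESCs to 65.0 to 97.5 CPM in NPs. Only the C-type points of ESCs and TET TKO cells overlap, and the gamma-A points of ESCs and NPs all but touch.

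The comparison of NPs with ESCs asked how gene use changed when ESCs were differentiated. Genes were tested with the quasi-likelihood test of edgeR where 1 library or more reached an RPKM (CPM per kb of exonic length) of 1. Calls were made where a gene's change was 3-fold or more and its p, adjusted by Benjamini-Hochberg, was under 0.001. By this rule 15 of the 58 rows were called higher in NPs, against 12.4% of the 15197 genes tested. None was called lower (9.98% of genes), although 2 had an unadjusted p under 0.05 in that direction and DESeq2 called 1. The called rows were 12 beta genes, Pcdhga5, Pcdhgb6 and Pcdhgc3. Only 22 rows reached the RPKM limit, most of them through NP libraries, so this share does not describe the clusters.

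With no filter on low counts 56 rows could be tested. Here 30 were called higher, against 8.51% of 31654 genes, and 1 was called lower, against 8.18%. The 30 were 20 of the 22 beta genes, 4 alpha genes and 6 gamma genes. The median log2 fold change was 6.15 over the beta genes, 4.30 over the 13 alpha rows with counts and 0.96 over the 21 gamma genes, beside -0.05 over all genes tested. All 3 NP libraries lay above all 3 ESC libraries for 45 of the 58 rows (23.0% of all genes), and below them for 5 (25.6%). At an adjusted p under 0.05, with no limit on the fold, 40 rows were higher (19.4%) and 3 lower (20.3%). With the RPKM filter these were 19 (32.5%) and 2 (31.5%). With 10 counts or more in all libraries of 1 group, 24 of 43 rows were called higher (13.0%) and 1 lower (11.3%), and 33 (33.7%) and 3 (32.6%) had an adjusted p under 0.05. All 43 rows met this minimum in NPs and only 18 in ESCs, so it too favours rows that are high in NPs. Of the 8 neuron markers 5 were called higher in NPs, as were 4 of the 6 endoderm markers and 2 of the 5 glial ones. The 6 mesoderm and fibroblast markers summed to 28.9 to 266 CPM against 21.5 to 24.8 in ESCs, with none called by edgeR under the RPKM filter, 2 called higher by DESeq2 and 3 by edgeR with no filter. The part of these cell types in the results was not tested. When 1 library was left out, 10 to 16 rows were called higher under the RPKM filter in place of 15, with 16 without NP replicate 2.

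Pcdhb22, the last beta gene, had the highest NP level of the cluster. It collected 5, 5 and 2 counts in ESCs, 477, 323 and 381 in NPs and 6, 7 and 6 in the deeper TET TKO libraries. Its level was 0.188 ± 0.0911 CPM in ESCs and 17.6 ± 4.72 in NPs. The groups were far apart, with a log2 fold change of 6.55 ± 0.41 (SE, adjusted p = 4.73e-06). Per kb of unshared exon Pcdhb22 reached 2.87 ± 0.767 CPM in NPs, ahead of Pcdhb20 at 1.95 ± 0.587, Pcdhb17 at 1.62 ± 0.634 and Pcdhb11 at 1.52 ± 0.0540. The ranges of Pcdhb20 and Pcdhb17 over the NP libraries overlapped with those of their neighbours in this order.

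Several beta genes moved from almost no counts in ESCs to many in NPs. Pcdhb20 had 0, 0 and 2 counts in ESCs against 148, 116 and 204 in NPs, a ratio of 227 with a 95% counting interval of 62.6 to 1884. Pcdhb11 had 2, 0 and 0 counts against 143, 155 and 156, a ratio of 221 (60.7 to 1827). Pcdhb19 had 1 count in each ESC library against 157, 98 and 212, a ratio of 151 (51.5 to 736). These intervals are exact and cover counting error only. The fitted log2 fold changes were 7.61 ± 0.68, 7.54 ± 0.62 and 7.10 ± 0.55, with adjusted p of 2.74e-05, 1.90e-05 and 1.42e-05. Pcdhb5 had 1, 0 and 0 counts against 103, 60 and 57 (log2 fold change 7.31 ± 0.75, adjusted p = 6.00e-05).

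Pcdhb4, Pcdhb9, Pcdhb12 and Pcdhb13 had no count in any ESC or TET TKO library. Set against 3 counts over the ESC group they were at least 30.5-fold, 14.9-fold, 13.6-fold and 25.9-fold higher in NPs. Pcdhb17 had 5, 14 and 11 counts in ESCs and 138, 126 and 247 in NPs, a log2 fold change of 4.05 ± 0.46 (adjusted p = 9.91e-05). Without ESC replicate 3 the adjusted p of Pcdhb17 was 0.001004, just past the limit.

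With no filter just 2 beta genes were not called, and both are named here because of their values. Pcdhb1, which lies apart from the other beta genes at the upstream end, had 3, 1 and 1 counts in ESCs and 1 count in each NP library, so it was close to the depth limit in both. Pcdhb14 had 13, 22 and 9 counts in ESCs, the largest share of the ESC beta counts at 26.9% ± 8.59, and 45, 47 and 50 in NPs. Its NP libraries all lay above its ESC libraries, but its log2 fold change of 1.65 ± 0.42 missed the limit (adjusted p = 0.00202). Among the beta genes called, fitted changes ran from 3.19 for Pcdhb8 to 7.98 for Pcdhb4, although a fitted value against a group at 0 is no bound.

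**Figure D3:**
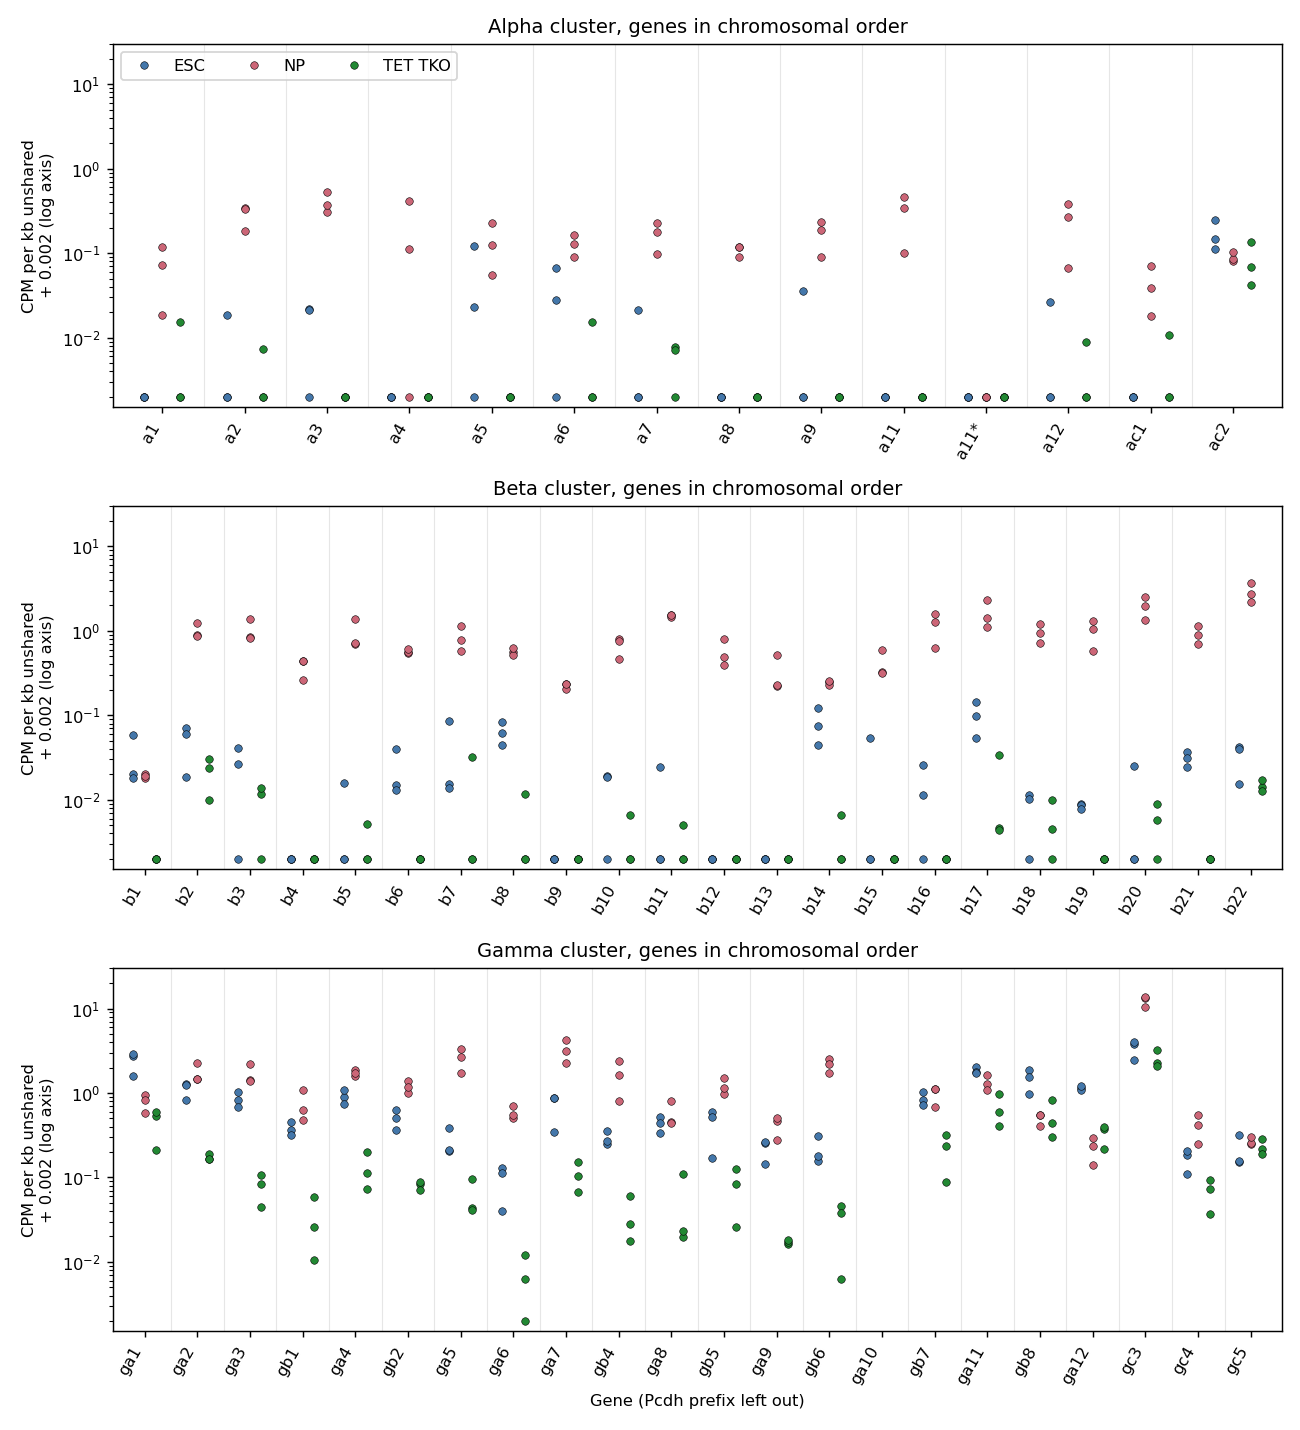
Level of every gene in each of the 9 libraries, as CPM per kb of unshared exonic length plus 0.002 on a log axis, with panels for the alpha, beta and gamma clusters, genes in chromosomal order and 1 point for each library. Values of 0 lie on the bottom row of points, the star marks the row Pcdha11 ENSMUSG00000102206, and Pcdhga10, with no unshared length, has no points. NP points stand above ESC points for 21 of the 22 beta genes, and TET TKO points stand below ESC points for 19 of the 22 gamma genes.

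Alpha genes carried few counts in every group, 12 to 25 in all in an ESC library and 84 to 148 in an NP library. Pcdha3, Pcdha2 and Pcdha11, with Pcdhac2 the most used over the 9 libraries, were all called higher in NPs once the RPKM filter was lifted. Pcdha3 had 1, 1 and 0 counts in ESCs and 16, 22 and 30 in NPs (log2 fold change 4.82 ± 0.74, adjusted p = 3.42e-06). Pcdha2 had 0, 0 and 1 counts against 18, 11 and 19 (5.14 ± 0.89, adjusted p = 1.93e-05). Pcdha11 had none in ESCs and 18, 6 and 26 in NPs, which was at least 16.2-fold higher. The call of Pcdha11 was lost without ESC replicate 3 (adjusted p = 0.00213). The alpha results thus rest on few reads, and no alpha row reached the RPKM limit.

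Of the C-type alpha genes, Pcdhac2 was not higher in NPs. Pcdhac2 supplied 64.6% ± 15.6 of the alpha counts in ESCs and 5.43% ± 1.49 in NPs. It had 9, 7 and 18 counts in ESCs and 5, 6 and 7 in NPs, all lower in CPM, but its log2 fold change of -0.91 ± 0.57 did not pass the test (adjusted p = 0.230). Its lower share in NPs went with higher counts of the other alpha genes. Pcdhac1 had no count in ESCs and 2, 1 and 4 in NPs, too few to tell the groups apart (adjusted p = 0.0567).

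Gamma genes were the ones with counts in ESCs, and they changed in both directions. Pcdhgb6 had 8, 17 and 11 counts in ESCs and 135, 107 and 127 in NPs, a log2 fold change of 3.32 ± 0.36 (adjusted p = 8.57e-05). Pcdhga5 had 20, 11 and 13 counts against 177, 107 and 156, a change of 3.28 ± 0.40 (adjusted p = 1.43e-04). For both genes every NP library was several times above every ESC library, although the adjusted p of Pcdhga5 rose to 0.00129 without ESC replicate 3. Pcdhga7 had 46, 47 and 21 counts against 227, 141 and 181, and its change of 2.22 ± 0.41 missed the limit under the RPKM filter (adjusted p = 0.00156) and passed it with no filter (7.86e-06). Pcdhgb5 had 56, 51 and 19 counts against 146, 107 and 119 and was not called (1.5 ± 0.45, adjusted p = 0.0171).

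Some genes near the ends of the gamma-A and gamma-B array had lower levels in NPs than in ESCs. Pcdhga1, the most upstream gamma gene, had 158, 174 and 109 counts in ESCs and 57, 40 and 53 in NPs. Its log2 fold change of -1.60 ± 0.33 missed the call (adjusted p = 0.00280), and DESeq2 called it (2.51e-05). At the downstream end, Pcdhga12 had 96, 95 and 120 counts in ESCs and 12, 29 and 22 in NPs. It was the 1 member called lower with no filter on low counts, at -2.33 ± 0.37 (adjusted p = 5.77e-06). Its neighbour Pcdhgb8 had 94, 81 and 59 counts against 21, 33 and 31 (-1.52 ± 0.34, adjusted p = 0.00436, not called). Pcdhga12 and Pcdhgb8 were picked out after their values were seen.

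**Figure D4:**
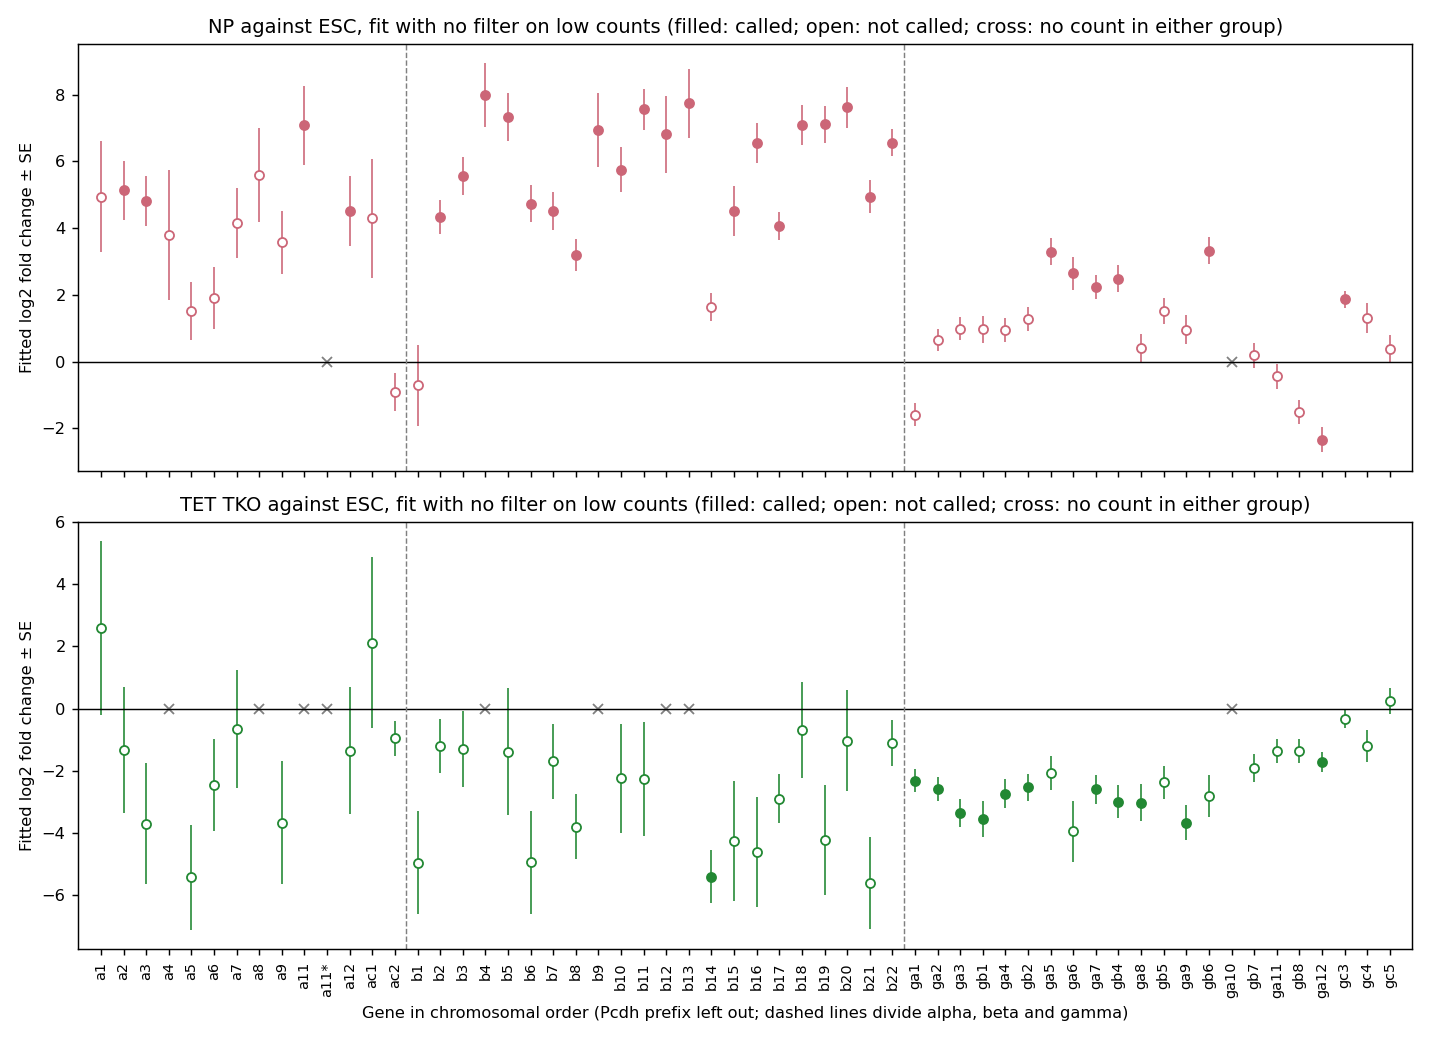
Fitted log2 fold change with its standard error for each of the 58 rows in chromosomal order, NPs against ESCs above and TET TKO cells against ESCs below, from the edgeR fit with no filter on low counts. Filled points were called at an adjusted p under 0.001 and at least 3-fold, crosses had no count in either group, and values against a group at 0 depend on the prior count. In NPs 30 points are called above 0 and 1 below, and in TET TKO cells 12 are called below 0 and none above.

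Pcdhgc3 was the most used protocadherin of the clusters in all 3 groups per kb of unshared exon, at 3.42 ± 0.830 CPM in ESCs against 12.3 ± 1.76 in NPs and 2.54 ± 0.631 in TET TKO cells. It had 141, 155 and 109 counts in ESCs and 503, 593 and 426 in NPs. The NP libraries were all well above, and Pcdhgc3 was called higher (log2 fold change 1.85 ± 0.23, adjusted p = 1.77e-04), except without ESC replicate 1, where the adjusted p was 0.00109. Pcdhgc4, known for its part in neuron survival, had 13, 15 and 9 counts against 18, 35 and 43 and was not called (1.32 ± 0.45, adjusted p = 0.0191 with no filter). Pcdhgc5 had 14, 31 and 17 counts against 24, 28 and 31, with overlapping groups (0.39 ± 0.42, adjusted p = 0.470).

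The make-up of the gamma counts is given as measured, and differences in it were not tested. In ESCs the genes with most counts were Pcdhga1 with 15.4% ± 1.76 of the gamma counts, Pcdhgc3 with 14.3% ± 0.878, Pcdhga12 with 11.3% ± 3.22 and Pcdhgb8 with 8.20% ± 0.973. In NPs they were Pcdhgc3 with 26.8% ± 5.93, Pcdhga7 with 9.48% ± 1.42, Pcdhga5 with 7.60% ± 1.34 and Pcdhgb4 with 6.54% ± 2.41. Pcdhgb5 with 6.45% ± 0.457 and Pcdhgb6 with 6.42% ± 0.363 were nearly level with Pcdhgb4. In NP replicate 2 both held 6.06% where Pcdhgb4 held 3.90%, so the place of Pcdhgb4 cannot be read. In TET TKO cells Pcdhgc3 took 35.2% ± 5.30, Pcdhga12 10.04% ± 1.41, Pcdhgb8 9.45% ± 2.66 and Pcdhga1 9.22% ± 3.07. Pcdhgc5 came close behind in TET TKO cells with 8.60% ± 4.31, against 2.18% ± 0.837 in ESCs, and in TET TKO replicate 3 it held 13.6% where Pcdhga1 held 6.20%, so the order below Pcdhgc3 cannot be read there. These are shares of counts, and longer unshared parts collect more. Per unshared length Pcdhgc3 came first in ESCs too, with 19.1% before Pcdhga1 with 13.25% and Pcdhga11 with 10.497%, and Pcdhga12 held 6.65%. Pcdhgc3 then held 34.5% in NPs and 44.0% in TET TKO cells, where Pcdhga11 came next with 10.9%.

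**Figure D5:**
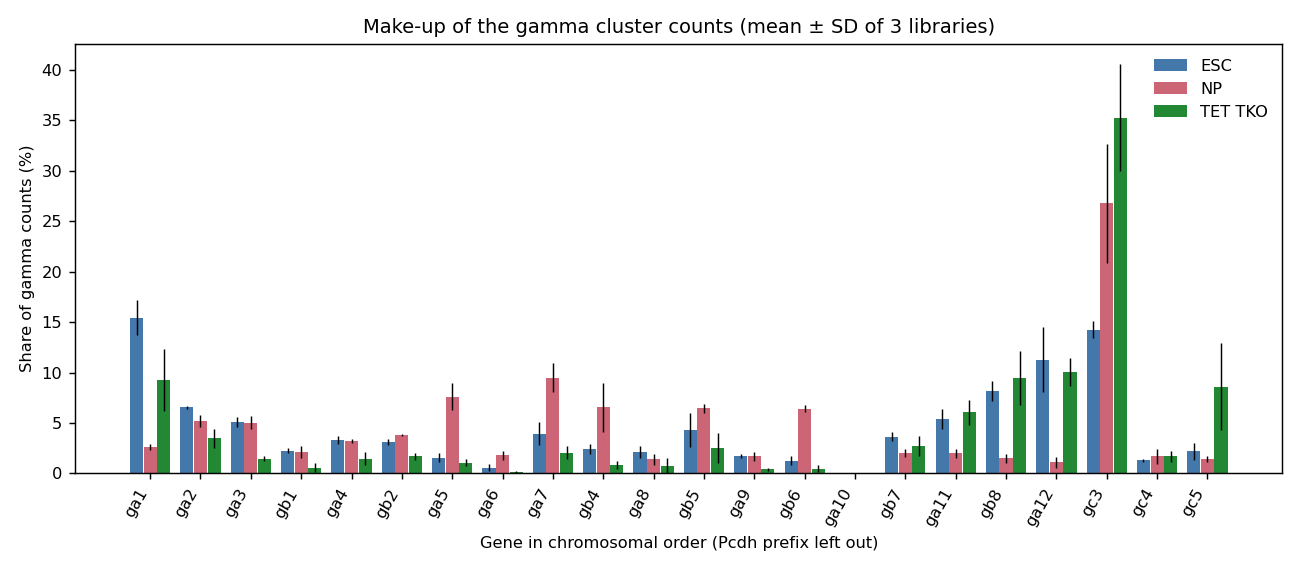
Share of the summed gamma counts taken by each gamma gene, in percent, as the mean of 3 libraries with the SD as error bar, genes in chromosomal order. Pcdhga1 holds 15.4% in ESCs against 2.603% in NPs and 9.22% in TET TKO cells, and Pcdhgc3 holds 14.3%, 26.8% and 35.2%.

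The 4 beta genes with the largest mean share of the beta counts in NPs, Pcdhb22, Pcdhb17, Pcdhb11 and Pcdhb20, together held 45.0%. Pcdhb19 was nearly level with the last of them, at 7.84% beside 7.98% for Pcdhb11 and 7.96% for Pcdhb20. By mean CPM Pcdhb19 (6.96) stood above Pcdhb11 (6.71), so their order cannot be read. In ESCs the 4 with the largest mean share held 62.3%, of 44 to 60 beta counts in a library. At so few counts the order of the beta genes in ESCs cannot be read, and the shares were not tested. Position along the beta array had a Spearman correlation of 0.42 with the NP level per kb across the 22 genes, given as a description, since the genes share the libraries and their clusters. It was the largest of those taken. The beta array gave -0.015 in ESCs, 0.015 in TET TKO cells and 0.21 for the change from ESCs to NPs. The gamma-A and gamma-B array gave -0.37 with the NP level.

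The comparison of TET TKO cells with ESCs addressed gene use without TET proteins, the enzymes that oxidise methylated cytosine. It used the same ESC libraries as the comparison above, so the values of both comparisons are not independent. Just 2 members reached the RPKM limit, Pcdhga1 and Pcdhgc3. edgeR called neither, beside 0.847% of 13939 genes called higher and 1.29% called lower. Of the 2, Pcdhga1 had an unadjusted p under 0.05, and DESeq2 called it lower.

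With no filter on low counts 49 rows could be tested. None was called higher, against 1.70% of 33796 genes, and none had an unadjusted p under 0.05 in that direction. Lower calls numbered 12, against 2.04% of genes. In that direction 29 rows had an unadjusted p under 0.05. The share of all genes at that unadjusted limit was not taken, so the 29 cannot be set against it. The 12 were Pcdhb14 and 11 of the gamma-A and gamma-B genes. The median log2 fold change was -2.54 over the 21 gamma genes with counts and -2.58 over the 18 beta genes with counts, beside 0.12 over all genes tested. All 3 TET TKO libraries lay below all 3 ESC libraries for 26 of the 58 rows (16.7% of all genes) and above them for none (16.1%).

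The TET TKO libraries were deeper, and thinned to the ESC depth they gave the same number of lower calls, 12. The number hung on 1 ESC library, since without ESC replicate 1 it was 7. With 10 counts or more in all libraries of 1 group, 19 members were tested, 3 of them called lower (1.41% of genes) and none higher (0.864%). This minimum was met by 18 members in ESCs and by 14 in TET TKO cells. At an adjusted p under 0.05 the numbers were 16 lower (14.6%) and none higher (15.8%), and with the RPKM filter 1 lower (16.0%) and none higher (17.6%). TET TKO replicate 3 had the lowest gamma sum, 9.53 CPM beside 13.8 and 16.5. Without that library the lower calls with no filter numbered 11. Trophoblast markers summed to 154 to 295 CPM in TET TKO cells and 74.9 to 96.0 in ESCs, and neural progenitor markers to 54.5 to 119 and 36.4 to 42.2. The 8 ESC markers summed to 2609.8 to 3440.1 CPM in TET TKO cells against 4681.9 to 4713.5 in ESCs, with 1 called lower and a median log2 fold change of -0.63. The neuron markers summed to 189 to 292 CPM against 445 to 533. The part of these markers in the result was not tested.

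The gamma-A and gamma-B genes were lower in TET TKO cells along the whole array. Pcdhga1 stood at 7.75, 8.18 and 4.50 CPM in ESCs and 1.51, 1.71 and 0.591 in TET TKO cells. Its log2 fold change was -2.44 ± 0.44 under the RPKM filter (adjusted p = 0.00559, not called) and -2.33 ± 0.37 with no filter (6.89e-05, called). Pcdhga7 measured 2.26, 2.21 and 0.867 CPM against 0.261, 0.387 and 0.167, and it was called lower at -2.602 ± 0.47 (adjusted p = 2.41e-04), but not without ESC replicate 1 (0.00176). For both genes the groups did not overlap.

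Pcdhgb5 stood at 2.75, 2.40 and 0.785 CPM in ESCs and 0.373, 0.574 and 0.111 in TET TKO cells (-2.38 ± 0.52, adjusted p = 0.00184, not called). Pcdhga5 measured 0.981, 0.517 and 0.537 CPM against 0.236, 0.107 and 0.1003 (-2.08 ± 0.54, adjusted p = 0.00749). Pcdhgb6 measured 0.392, 0.799 and 0.454 CPM against 0.112, 0.0934 and 0.0111 (-2.81 ± 0.67, adjusted p = 0.00358). The groups of each of these genes were apart, yet none of the genes passed the limit. Fitted values of the 18 gamma-A and gamma-B genes with counts lay between -3.96 for Pcdhga6 and -1.37 for Pcdhgb8, and all 18 had an adjusted p under 0.05 (8.21% of genes were lower and 11.1% higher by that limit).

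Of the gamma-A and gamma-B genes called lower, 2 more are given in full, chosen after their values were seen. Pcdhga9 stood at 0.883, 0.893 and 0.496 CPM in ESCs and at 0.0498, 0.0534 and 0.0557 in TET TKO cells, a log2 fold change of -3.67 ± 0.58 (adjusted p = 5.05e-05). Pcdhga12 stood at 4.71, 4.46 and 4.96 CPM against 1.52, 1.61 and 0.880, a change of -1.72 ± 0.33 (adjusted p = 5.08e-04). Both had separate groups, and the change at the downstream end was the smaller of the pair. That difference was not tested.

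The C-type gamma genes were not called. Pcdhgc3 stood at 6.92, 7.28 and 4.50 CPM in ESCs and 5.93, 4.10 and 3.82 in TET TKO cells, with overlapping groups and a log2 fold change of -0.45 ± 0.28 (adjusted p = 0.247). Pcdhgc5 measured 0.687, 1.46 and 0.702 CPM against 0.983, 0.867 and 1.29, a change of 0.24 ± 0.41 (adjusted p = 0.720). Pcdhgc4 measured 0.638, 0.705 and 0.372 CPM against 0.249, 0.320 and 0.123, a change of -1.21 ± 0.52 (adjusted p = 0.122). All 3 TET TKO libraries lay below the ESC libraries for Pcdhgc4, and not for the other two. Whether C-type genes changed less than gamma-A and gamma-B genes was not tested.

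Beta genes were near the counting limit in both kinds of ESC. Pcdhb14 had 13, 22 and 9 counts in ESCs and 0, 3 and 0 in the deeper TET TKO libraries, so the ESC level was 54.6 times as high, with a counting interval of 17.5 to 275. Its fitted log2 fold change was -5.42 ± 0.85 (adjusted p = 4.83e-05). Pcdhb17 had 1, 11 and 1 counts in TET TKO cells, a change of -2.90 ± 0.78 that was not called (adjusted p = 0.00955). Pcdhb22 had 6, 7 and 6 counts (-1.12 ± 0.74, adjusted p = 0.360). No count was found for 10 of the 22 beta genes in TET TKO cells and for 4 in ESCs.

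Alpha genes gave no call in this comparison. Pcdhac2 had 33, 9 and 18 counts in TET TKO cells, or 0.411, 0.120 and 0.201 CPM, against 0.441, 0.329 and 0.744 CPM in ESCs. These groups overlapped (-0.96 ± 0.55, adjusted p = 0.271). Pcdhac2 supplied 82.8% ± 8.38 of the alpha counts in TET TKO cells. The 12 alpha rows other than the C-type genes together had 3, 2 and 4 counts there, so their sum rests on very few reads.

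Genes known to act on protocadherin promoters were measured beside them. Of 11 cohesin and CTCF genes, none was called in either comparison by edgeR or DESeq2. In NPs 2 had an unadjusted p under 0.05 and a higher level and 6 a lower one, and in TET TKO cells 3 a higher one. Ctcf itself, named though it was not called, stood at 227 CPM in ESCs against 196 in NPs and 284 in TET TKO cells (adjusted p = 0.191 and 0.0996 against ESCs). Of 13 genes of promoter methylation and silencing, 2 were called higher and 6 lower in NPs, beside 12.4% and 9.98% of all genes. The 2 largest changes were those of Dnmt3l, a cofactor of de novo methylation (453 to 0.906 CPM, log2 fold change -8.93 ± 0.40, adjusted p = 1.07e-06), and of Tet1 (-3.98, adjusted p = 1.90e-06). The TET TKO libraries gave calls of 2 among the 12 tested, Tet2 and Tet1, both lower (-3.05 and -2.38), beside 1.29% of all genes.

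Of 16 partners and processing factors of protocadherin proteins 15 were tested in NPs, where 2 were called higher and 1 lower, beside 12.4% and 9.98% of all genes. Ptk2b, a kinase that the constant cytoplasmic part binds and inhibits, fell from 45.2 ± 4.87 to 2.69 ± 0.733 CPM (-4.06 ± 0.23, adjusted p = 2.94e-06). Marcks, an actin-binding protein of dendrites in the gamma protocadherin pathway, rose from 37.5 ± 3.84 to 292 ± 56.4 CPM (2.97 ± 0.17, adjusted p = 3.35e-06). Against TET TKO cells none of 14 was called by edgeR or DESeq2, and 5 had an unadjusted p under 0.05 with a higher level and 1 with a lower one.

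The non-clustered protocadherins, which have whole genes of their own outside the clusters, were also higher in NPs. All 4 of the 12 that reached the RPKM limit were called, a count that the limit favours, beside 12.4% of all genes. With no filter 10 of 12 were called higher, beside 8.51%. Pcdh18 went from 0.294, 0.517 and 0.124 CPM in ESCs to 43.1, 34.8 and 26.7 in NPs (6.81 ± 0.40, adjusted p = 3.52e-06). Pcdh8 went from 0.883, 0.564 and 0.744 to 41.2, 27.5 and 18.8 CPM (5.31 ± 0.37, adjusted p = 7.68e-06). For TET TKO cells Pcdh1, the 1 gene tested, was not called by edgeR (1.76 ± 0.23, adjusted p = 0.00152) and was called higher by DESeq2. With no filter 3 of the 12 were called higher (1.70% of all genes) and none lower (2.04%), with 1 at an unadjusted p under 0.05 in the lower direction.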

How the data were processed

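The authors made TruSeq libraries, aligned reads to GRCm38 with STAR 2.6.1b and deposited raw counts per gene from featureCounts 1.6.2 (Ensembl 89 models, no strand, no multi-mapped or multi-overlapping reads). No columns came from other samples. Counts were used as deposited. Symbols came from a table of gene names, which matched 51633 of 51912 rows. Members and gene lists were chosen with earlier results of these data known. Named genes were the C-type genes, the 4 highest per cluster, the 3 called with the largest rise or fall per comparison and cluster, and those under 3 counts in every library. From each list the 2 largest changes called are named.

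Tests ran across all genes with edgeR 4.0.16 (glmQLFit, TMM) in R 4.3.3, at the study's limits (RPKM of 1, adjusted p of 0.001, 3-fold). The study words its RPKM filter as discarding genes above the limit. It was read here as keeping genes that reach it in at least 1 library, and this reading decides the 22 members tested and 15 called in NPs. Alternatives were DESeq2 1.42.0, other scalings and filters, a replicate block, thinning and leaving out libraries. In simulated counts this test recovered 96.7% of genes changed by 2 log2 units between NPs and ESCs (14073 genes) and 96.0% between TET TKO cells and ESCs (13219 genes), with 0 false calls. The simulation gave all genes the same fixed spread between replicates. Changed genes were drawn above a minimum of counts and scored only where they passed the RPKM filter. It therefore gives no power or error rate for members near 0 counts or for the spread of these libraries. Replicates of a group differed by more than sampling noise. The methylation files of the series were not used.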

Additional observations from a re-analysis of the deposited data

How the results depend on the processing

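For NPs against ESCs, 15 members were called higher. The number was 30 with no filter, 24 with 10 counts or more in all libraries of 1 group and 2 with 10 or more in all 6 libraries, where 18 members could be tested. It was 16 by library sizes alone, 15 with RLE factors, 17 with DESeq2, 14 with all 9 libraries in the fit, 16 with the replicate block, and 10 to 16 when 1 library was left out (23 to 33 with no filter). The number called lower was 0, and 1 with DESeq2, with no filter or with either count minimum, and 2 at an adjusted p of 0.05 with no limit on the fold. With no filter it was 1 to 2 when 1 library was left out. For TET TKO cells against ESCs, 0 members were called lower, 1 with DESeq2, with the replicate block or at an adjusted p of 0.05, 12 with no filter, 3 with 10 counts in all libraries of 1 group and 2 with 10 in all 6. With no filter, 7 to 18 were called lower when 1 library was left out, the 7 without ESC replicate 1, and 17 with the replicate block. Shares over all genes were taken only for the RPKM filter, no filter and 10 counts in all libraries of 1 group. The numbers of the other settings describe the members alone. Replicate numbers did not pair the samples (correlations of same-numbered libraries from -0.121 to 0.009 in NPs and -0.079 to 0.303 in TET TKO cells).

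The uncalled changes of 4 members in TET TKO cells reversed without 1 ESC library. When 1 library was left out they ran from -2.69 to 1.54 for Pcdha2 and -1.80 to 2.76 for Pcdhb20 (positive without ESC replicate 3), and from -2.62 to 1.53 for Pcdhb5 and -3.60 to 1.56 for Pcdhb11 (positive without ESC replicate 1). Each rests on 1 to 3 counts per group. Per unshared exonic length, the share of Pcdhb14 in ESCs was 14.7%, below Pcdhb17 at 19.6%, of Pcdhb22 in NPs 14.6%, of Pcdhga1 in ESCs 13.25%, below Pcdhgc3 at 19.1%, and of Pcdhgc3 34.5% in NPs and 44.0% in TET TKO cells. Causes of these shifts were not tested. Depth limits the alpha genes throughout and the beta genes in both kinds of ESC.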

Other observations

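Genes that lie beside or between the clusters were measured in NPs too. Of 13 such genes 12 were tested, and edgeR called none higher and 3 lower, beside 12.4% and 9.98% of all genes, while 3 had an unadjusted p under 0.05 with a higher level and DESeq2 called 1 of them. Dnd1, an RNA-binding protein of germ cells, went from 21.8 ± 1.61 to 4.30 ± 2.53 CPM (log2 fold change -2.33, adjusted p = 6.17e-04). Taf7, a subunit of the general transcription factor TFIID that lies between the beta and gamma arrays, went from 192 ± 14.5 to 43.3 ± 6.43 CPM (-2.14, adjusted p = 6.56e-06). Diaph1, downstream of the gamma array, was the other gene called lower, and is named because of its value (-1.68, adjusted p = 4.23e-06). In TET TKO cells none of the 11 tested was called by edgeR or DESeq2, and 1 had an unadjusted p under 0.05 with a higher level and 4 with a lower one.

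Classical cadherins, the calcium-dependent adhesion proteins from which protocadherins take their name, changed in part in NPs. Of 17 genes 8 were tested, and edgeR called 5 higher and none lower, beside 12.4% and 9.98% of all genes. At an unadjusted p under 0.05 there were 6 higher and 1 lower, and DESeq2 called 6 and 0. Cdh8 went from 0.256 ± 0.0517 to 29.2 ± 16.6 CPM (6.80, adjusted p = 1.38e-05) and Cdh6 from 0.293 ± 0.158 to 23.0 ± 10.48 CPM (6.28, adjusted p = 1.32e-05). Cdh1, the epithelial cadherin, is given after its values were seen. It stood at 564 ± 23.3 CPM in ESCs against 274 ± 4.41 in NPs and 1106.5 ± 52.5 in TET TKO cells, and neither change reached 3-fold. In TET TKO cells edgeR called none of the 5 tested, with 4 at an unadjusted p under 0.05 and a higher level, and DESeq2 called 1 higher.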
